A study of Mus musculus with 8 samples.

Results

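This account concerns 8 genes that encode small secreted or cell-surface proteins of cartilage, taken by name from 739 distinct genes that the study's authors list as changed in Sox9 mutant mouse limb buds. The secreted or matrix proteins are chondromodulin (Lect1, now Cnmd), chondroadherin (Chad), cytokine-like 1 (Cytl1) and melanoma inhibitory activity (Mia). The membrane proteins are Susd5, 3110079O15Rik (now Snorc), melanotransferrin (Mfi2, now Meltf) and Fxyd3. They were chosen from lists made on these same libraries: 7 of the 8 are listed as lower in the mutant in GFP-positive cells and 3 in GFP-negative cells, with Cytl1 and Susd5 in both lists, so the listed differences are described here and not tested.

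The samples were limb buds of C57BL/6 fetuses at E13.5, 4 to 6 pairs of buds per genotype. Control fetuses, called WT, carried Sox9+/IRES-EGFP, a reporter placed in 1 otherwise normal Sox9 allele, and mutant fetuses, called Y440X, carried Sox9+/Y440X-IRES-EGFP, in which the reporter allele also holds the Y440X mutation found in campomelic dysplasia. Both genotypes thus kept 1 untagged Sox9 allele, and GFP marked cells that transcribe the tagged one. Buds were digested with type II collagenase plus a neutral protease, and the cells were sorted on fluorescence into GFP-positive and GFP-negative fractions, and sequenced as 8 libraries in 4 groups of 2, of which 1 library was forelimb and 1 hindlimb. The design text counts the limbs as biological replicates, so the spreads and p-values of the fraction and genotype comparisons below mix limb difference with other variation, except where limb is named as a block, and each library is a pool of fetuses.

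SOX9 is the transcription factor that directs mesenchymal cells into the cartilage lineage and then keeps the genes of the chondrocyte matrix active. Besides collagens and aggregating proteoglycans, chondrocytes make a set of smaller products that act around this scaffold. Chondromodulin is made as a membrane precursor and released into the matrix, where it keeps blood vessels out of cartilage; chondroadherin is a leucine-rich repeat protein that binds collagen and cell-surface integrins; the MIA protein, also called cartilage-derived retinoic acid-sensitive protein, is secreted by chondrocytes and by melanoma cells. Snorc is a transmembrane proteoglycan of chondrocytes, melanotransferrin is a lipid-anchored relative of transferrin that binds iron, and the FXYD3 protein regulates the sodium and potassium pump and is best known from epithelia.

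All 8 symbols matched a RefSeq gene and 7 had an entry in the table of promoters, which hold 250 bases before and 50 bases after a start site; the entry for 3110079O15Rik is missing. The windows were searched on both strands for ACAATG and ACAAAG, core letters of SOX family binding sites, because the mutated gene encodes a SOX factor. Neither was found in any of the 7 windows, whereas 28.6% of the 32851 promoters in the table hold at least 1 of them. That says only that these letters are not in these windows. TATAAA, the core promoter box, was added to the search after the data had been seen. It was found once, in Chad, 28 bases before the start, and 13.6% of all promoters hold it. The 4 stretches below are shown because their genes mark the range of behaviour described further on: Lect1 is the most abundant, Chad holds the TATAAA match, Mia fell least in GFP-positive cells and Fxyd3 moved in opposite directions in the fractions. Each is the 250 bases before the start, 5′ to 3′ along the gene, from RefSeq on GRCm38.p6, with the TATAAA match in capitals.
Lect1 (chr14:79662184-79662433, minus strand): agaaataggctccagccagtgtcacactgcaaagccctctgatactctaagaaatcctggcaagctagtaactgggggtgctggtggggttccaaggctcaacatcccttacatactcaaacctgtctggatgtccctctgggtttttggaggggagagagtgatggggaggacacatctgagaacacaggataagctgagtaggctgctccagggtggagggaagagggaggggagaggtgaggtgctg
Chad (chr11:94564797-94565046, plus strand): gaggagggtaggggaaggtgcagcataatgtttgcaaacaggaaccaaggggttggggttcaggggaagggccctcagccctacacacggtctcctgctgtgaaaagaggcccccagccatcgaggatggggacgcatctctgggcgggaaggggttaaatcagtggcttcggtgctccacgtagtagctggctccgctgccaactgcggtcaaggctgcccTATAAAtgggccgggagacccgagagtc
Mia (chr7:27181150-27181399, minus strand): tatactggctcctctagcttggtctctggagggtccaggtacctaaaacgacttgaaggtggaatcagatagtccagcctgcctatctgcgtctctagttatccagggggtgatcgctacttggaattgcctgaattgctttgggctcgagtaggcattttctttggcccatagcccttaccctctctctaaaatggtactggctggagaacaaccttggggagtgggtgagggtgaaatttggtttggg
Fxyd3 (chr7:31076698-31076947, minus strand): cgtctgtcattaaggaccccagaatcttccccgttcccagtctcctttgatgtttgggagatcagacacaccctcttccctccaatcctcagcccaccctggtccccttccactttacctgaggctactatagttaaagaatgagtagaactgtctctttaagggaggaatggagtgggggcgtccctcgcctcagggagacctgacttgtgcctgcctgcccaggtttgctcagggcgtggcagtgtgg

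Depth and labels were checked first. Effective library sizes lay between 38579000 and 51140000 reads, so 1 CPM (1 read per 1e+06 reads of the library) rests on 38.6 to 51.1 reads. Sox9, counted from both alleles together, was at 1070 and 925 CPM in the WT GFP-positive forelimb and hindlimb libraries, 475 and 560 CPM in Y440X GFP-positive, 96.4 and 72.1 CPM in WT GFP-negative and 17.8 and 21.9 CPM in Y440X GFP-negative. The gate thus separated Sox9 levels in both genotypes, as the reporter sits in that gene. The 5 fixed cartilage markers (Col2a1, Col9a1, Acan, Hapln1 and Matn1) summed to 35297 and 23763 CPM in WT GFP-positive libraries, 10693 and 8004 CPM in Y440X GFP-positive, and 201 to 353 CPM in the 4 GFP-negative libraries. In sorted pools, fewer cartilage cells and less RNA per cartilage cell cannot be told apart.

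Together the 8 genes took 2114 and 1432 CPM of the WT GFP-positive libraries, 522 and 371 CPM of the Y440X GFP-positive ones, 25.2 and 16.5 CPM of WT GFP-negative and 10.6 and 8.43 CPM of Y440X GFP-negative. The groups did not overlap, and in every group the forelimb library, given first here and below, was the higher one. Values of single genes follow, the secreted proteins first.

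Lect1 (chromosome 14, 79637690 to 79662170, minus strand, GRCm38) was at 971 and 581 CPM in WT GFP-positive and 209 and 115 CPM in Y440X GFP-positive libraries. In GFP-negative libraries it was at 15.1 and 9.92 CPM in WT and 8.11 and 4.68 CPM in Y440X. The 4 groups stood in the same order as the summed level, without overlap. Chad (chromosome 11, 94565047 to 94569127, plus strand) was at 78.7 and 56.6 CPM in WT GFP-positive and 13.7 and 12.2 CPM in Y440X GFP-positive libraries. It was at 0.783 and 0.36 CPM in WT GFP-negative and 0.274 and 0.562 CPM in Y440X GFP-negative, where the genotypes overlapped. Chad lies within Acsf2, which runs on the opposite strand and shares 0 exon bases with it.

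Cytl1 (chromosome 5, 37735519 to 37739820, plus strand), a secreted protein first noted for its cytokine-like fold, was at 327 and 242 CPM in WT GFP-positive and 73.5 and 68.5 CPM in Y440X GFP-positive libraries. Its GFP-negative values were 2.35 and 1.69 CPM in WT and 0.45 and 0.52 CPM in Y440X. Both pairs of genotypes were apart. Mia (chromosome 7, 27179742 to 27181157, minus strand) was at 126 and 91.7 CPM in WT GFP-positive and 59.0 and 56.0 CPM in Y440X GFP-positive libraries. It was at 2.48 and 1.64 CPM in WT GFP-negative and 0.254 and 0.208 CPM in Y440X GFP-negative. Genotypes were apart in both fractions, with the wider gap in the GFP-negative one. In the annotation Mia shares 41.2% of its merged exon bases with Gm21983, a longer gene model on the same strand, so reads of these 2 may not be told apart. The deposited length of Mia, 567 bases, is shorter than the 994 bases of its merged GENCODE exons. How far this overlap entered the counts was not tested.

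Susd5 (chromosome 9, 114057140 to 114098728, plus strand), a sushi domain protein whose role is little known, was at 485 and 380 CPM in WT GFP-positive and 150 and 107 CPM in Y440X GFP-positive libraries. In the GFP-negative fraction it was at 3.01 and 1.89 CPM in WT and 0.704 and 1.10 CPM in Y440X. The genotypes were apart in both fractions. 3110079O15Rik (chromosome 1, 87470271 to 87475482, plus strand) was at 61.5 and 36.7 CPM in WT GFP-positive and 11.8 and 6.38 CPM in Y440X GFP-positive libraries. Its GFP-negative libraries held 12 and 6 reads in WT and 1 and 0 reads in Y440X, so it was close to undetected there.

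Mfi2 (chromosome 16, 31878810 to 31899020, plus strand) was at 59.7 and 39.0 CPM in WT GFP-positive and 4.98 and 4.73 CPM in Y440X GFP-positive libraries. In GFP-negative libraries it was at 1.02 and 0.81 CPM in WT and 0.567 and 0.874 CPM in Y440X, and the genotypes overlapped. Fxyd3 (chromosome 7, 31068172 to 31076704, minus strand) was the rarest of the 8, with 190 and 218 reads (4.92 and 5.12 CPM) in WT GFP-positive and 16 and 27 reads (0.351 and 0.602 CPM) in Y440X GFP-positive libraries. GFP-negative libraries held 7 and 3 reads in WT and 12 and 23 in Y440X, apart and in the opposite direction. In the annotation 42.5% of the merged exon bases of Fxyd3 are shared with Lgi4 on the opposite strand. The library kit was stranded, but the labels do not say whether counting used strand, and the deposited length of Fxyd3, 524 bases, is shorter than the 4850 bases of its merged GENCODE exons, so how far this overlap entered the counts was not tested.

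**Figure D1:**
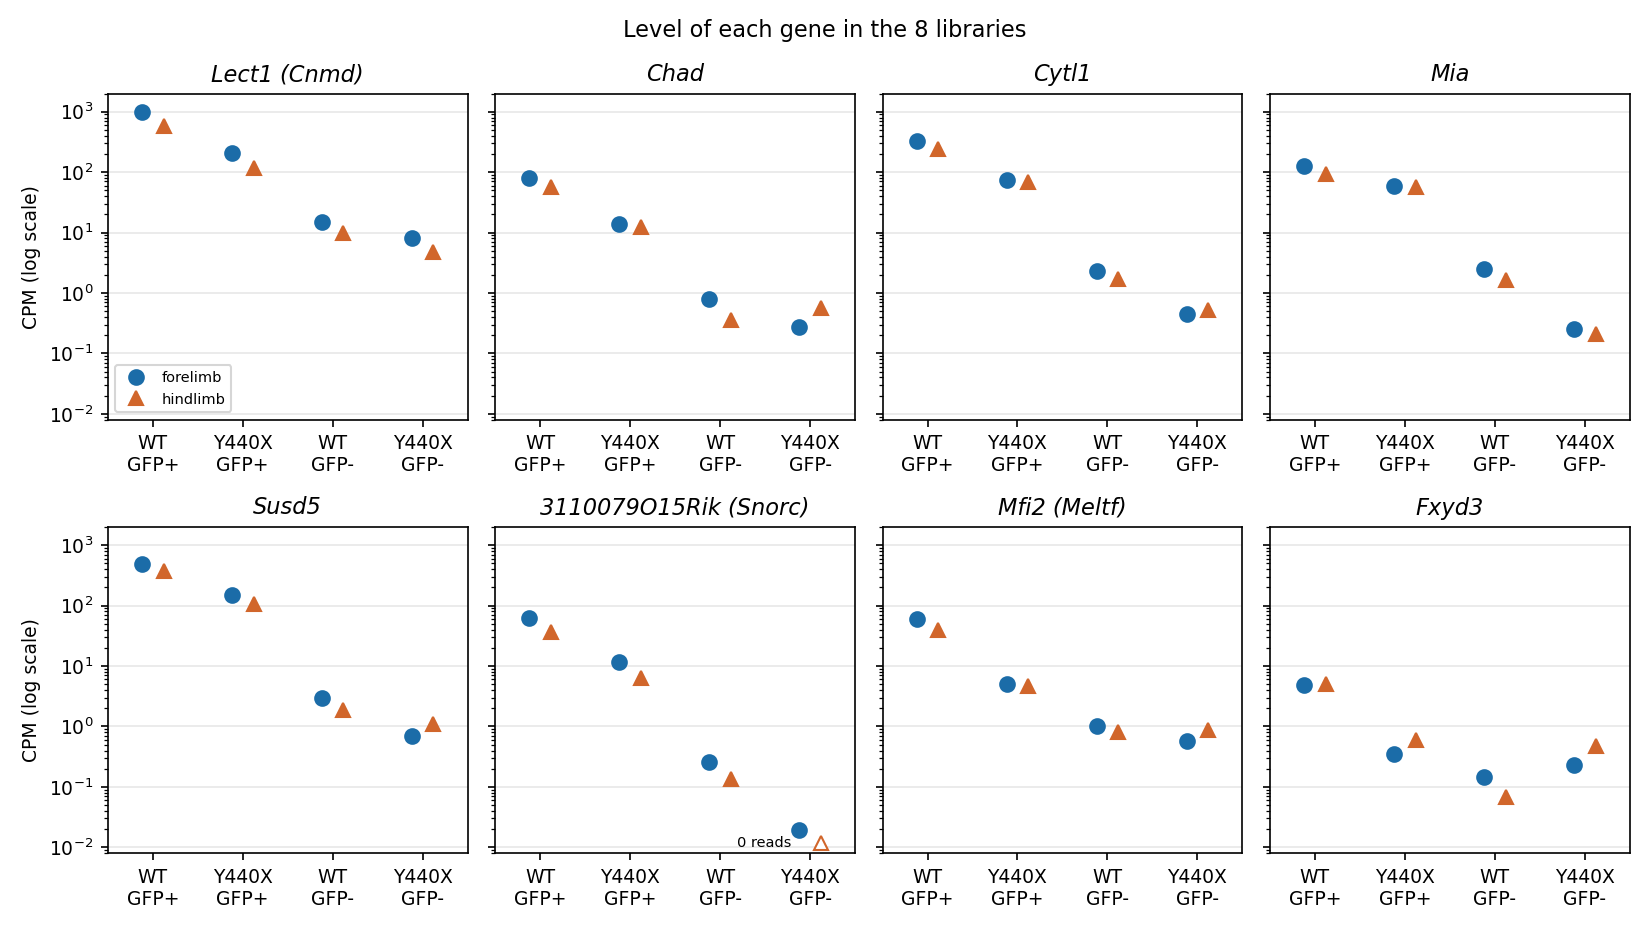
CPM (log scale) of each gene in the forelimb (circle) and hindlimb (triangle) library of the 4 groups; the open triangle is a library with 0 reads, drawn at the foot of the axis. WT GFP-positive libraries are the highest for all 8 genes, and Fxyd3 alone is higher in both Y440X than in both WT GFP-negative libraries.

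Levels can be compared between genes only per length, as RPKM (reads per kilobase of the deposited gene length and per 1e+06 reads). In WT GFP-positive cells Lect1 led with 540.5 ± 192 RPKM (SD, n = 2), followed by Cytl1 at 292 ± 61.9, Mia at 192 ± 43.4, Susd5 at 112 ± 19.3, 3110079O15Rik at 106 ± 38.0, Chad at 40.9 ± 9.45, Mfi2 at 11.9 ± 3.55 and Fxyd3 at 9.59 ± 0.266 RPKM. Susd5 overlapped 3110079O15Rik, and Mfi2 overlapped Fxyd3; the other neighbours were apart. In Y440X GFP-positive cells Mia, at 101 ± 3.75 RPKM, stood second and within the range of Lect1, at 113 ± 46.4 RPKM, and Cytl1 followed at 72.9 ± 3.63 RPKM. The last places were again held by Mfi2 and Fxyd3, at 1.18 ± 0.0436 and 0.91 ± 0.339 RPKM, which overlapped. The highest level was 56.4 times the lowest in WT and 124 times in Y440X. In WT GFP-negative cells Lect1 led at 8.72 ± 2.57 RPKM, before Mia at 3.63 ± 1.04 RPKM and Cytl1 at 2.07 ± 0.481 RPKM, each apart from the next, and the 5 others lay under 1 RPKM with overlapping neighbours. In Y440X GFP-negative cells Lect1 led at 4.46 ± 1.69 RPKM, Fxyd3 came second at 0.681 ± 0.329 RPKM, overlapping Cytl1 at 0.498 ± 0.0511 RPKM, and 3110079O15Rik was last.

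The first comparison asked how far the 8 genes follow the sort, GFP-positive against GFP-negative. The authors' lists did not use this contrast itself, but they share groups with it. Listing as lower in Y440X GFP-positive cells, which holds for 7 of the 8, favours a high WT GFP-positive level. That level is also a side of the WT contrast, so the p-values of the 8 are not independent of their choice. All 8 were called higher in GFP-positive cells in WT and 7 of 8 in Y440X, where Fxyd3 did not pass. By edgeR's quasi-likelihood test over the 739 listed genes, 30.3% of genes were called higher and 49.8% lower in GFP-positive cells in WT, and 29.1% higher and 39.2% lower in Y440X. The median log2 fold change of the 8 was 6.41 in WT and 6.05 in Y440X, against -0.86 and -0.34 over the 731 other genes. As these 8 were named as cartilage genes, a high level in the Sox9 reporter fraction is part of what they were picked for, and no claim rests on their count.

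In WT the difference was widest for 3110079O15Rik, with a log2 fold change of 7.95 ± 0.51 (SE; edgeR adjusted p = 4.04e-09), and for Susd5 at 7.46 ± 0.28 (edgeR adjusted p = 1.1e-09). Cytl1 followed at 7.13 ± 0.24 (edgeR adjusted p = 6.41e-10) and Chad at 6.87 ± 0.36 (edgeR adjusted p = 2.88e-09). Lect1, Mfi2, Mia and Fxyd3 measured 5.95 ± 0.35, 5.75 ± 0.29, 5.72 ± 0.24 and 5.49 ± 0.55, with edgeR adjusted p between 1.1e-09 and 9.55e-08. These differences are larger than that of Sox9 itself, 3.57 ± 0.23, counted from both alleles. The gate sorted on GFP from the tagged allele alone.

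In Y440X the genes spread further apart. Cytl1 and Susd5 measured 7.19 ± 0.28 and 7.15 ± 0.31 (edgeR adjusted p = 1.71e-09 and 4.66e-09), close to their WT values. Mia measured 7.94 ± 0.35 (edgeR adjusted p = 1.71e-09), wider than in WT, while Chad at 4.95 ± 0.38, Lect1 at 4.66 ± 0.35 and Mfi2 at 2.75 ± 0.30 were narrower (edgeR adjusted p = 8.16e-08, 3.05e-07 and 2.69e-06). Fxyd3 did not pass, at 0.42 ± 0.44 (edgeR adjusted p = 0.407, between 0.13 and 0.991 over 14 alternatives): its 16 and 27 reads in GFP-positive libraries stood beside 12 and 23 in GFP-negative ones. 3110079O15Rik rests on 822 reads against 1, a ratio of 902 with a 95% counting interval of 161 to 35672 (exact Clopper-Pearson; counting error only). The differences between genotypes in this contrast contain the listed genotype differences and were not tested.

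**Figure D2:**
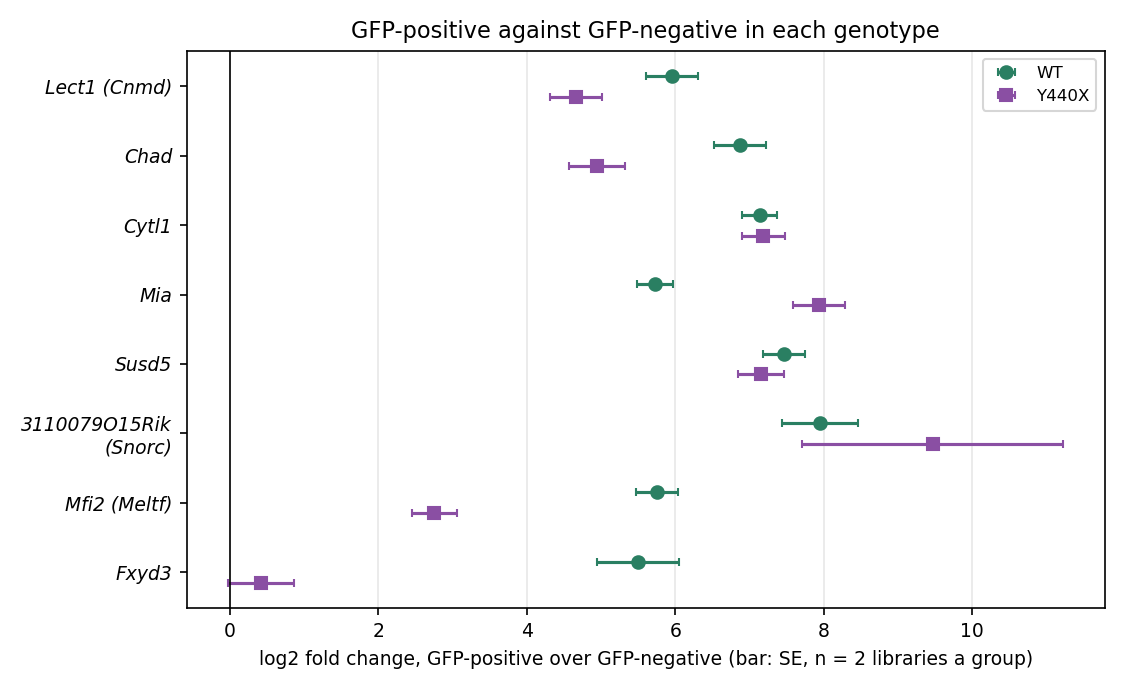
Fitted log2 fold change of GFP-positive over GFP-negative cells for each gene in WT (circles) and Y440X (squares); bars are SE, with 2 libraries a group. All WT values lie between 5.49 and 7.95, and the Y440X values run from 0.42 for Fxyd3 to 9.47 for 3110079O15Rik, which rests on 1 read in its lower group.

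Seen the other way, the GFP-negative level was a small share of the GFP-positive one sorted from the same limbs. In WT it was between 0.368% and 3.01% over the 8 genes and both limbs, with a median of 1.16%, and between 0.262% and 2.11% for the 5 cartilage markers, with a median of 0.902%. The ranges of the members and of the markers overlapped. Within WT the share was much the same in both limbs for Lect1 (1.56% and 1.71%), Cytl1 (0.718% and 0.698%) and Mia (1.96% and 1.79%), though it differed between these genes. In Y440X the share of Lect1 was 3.88% and 4.07%, that of Mfi2 11.4% and 18.5%, and that of Fxyd3 66.8% and 79.5%. The share of Mia went the other way, to 0.431% and 0.372%. Acan, the aggrecan core protein, had shares of 0.589% and 0.33% in WT and 0.244% and 0.165% in Y440X, and Col9a1, a chain of type IX collagen, 1.29% and 2.11% in WT and 3.56% and 4.47% in Y440X. Whether the GFP-negative reads come from cells of that fraction or from GFP-positive cells carried into it was not tested.

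The second comparison was the study's own, Y440X against WT, in GFP-positive cells. All 8 genes were lower in the Y440X library than in the WT library of the same limb, in both limbs, by ratios between 0.0713 and 0.61 with a median of 0.207. The authors' table of lower genes in this fraction holds 227 genes, 1.4% of the roughly 16240 they tested, and 7 of the 8 are in it because the choice was made from it. Fitted log2 fold changes are given as descriptions. Fxyd3 and Mfi2 were lowest at -3.39 ± 0.33 and -3.35 ± 0.25. 3110079O15Rik, Chad and Lect1 stood at -2.44 ± 0.29, -2.39 ± 0.24 and -2.26 ± 0.31, Cytl1 at -2.0 ± 0.26 and Susd5 at -1.75 ± 0.27. The FDR in the authors' deposited table ran from 0.00189 for Mfi2 to 0.0317 for Lect1. For comparison, the same-limb ratio of the 5 cartilage markers lay between 0.188 and 0.371, so Mfi2 (0.0834 and 0.121) and Fxyd3 (0.0713 and 0.118) lay below that range in both limbs and Mia (0.466 and 0.61) above it.

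Mia is the 1 gene of the 8 that the authors do not list for GFP-positive cells, which leaves its difference there open to a test. It fell by 0.92 ± 0.25 on the log2 scale (edgeR adjusted p = 0.00284 over the 739 genes; lower in both limbs), just short of the 2-fold limit of the authors' lists, an absolute log2 fold change of 1. Of the 436 genes not listed for this fraction, 15.8% were called lower and 9.4% higher. Without the WT forelimb library Mia measured -0.67 (edgeR adjusted p = 0.0741), and scaled by TMM or by DESeq2 size factors over the listed genes -0.24 and -0.33 (adjusted p = 0.379 and 0.26); its adjusted p over all alternatives ran from 1.08e-06 to 0.379. Markers of Schwann cells and melanoblasts, other possible sources of Mia and Mfi2, were also listed in part. Of 13, 6 are in the lists, 4 as lower in GFP-positive and 3 as lower in GFP-negative cells. As the listed ones were selected as changed, a fall in their sum follows at least in part from that selection. Summed over the 6, they were at 67.8 and 78.0 CPM in WT and 18.6 and 23.5 CPM in Y440X GFP-positive libraries, at 70.1 and 47.9 CPM in WT and 36.4 and 19.3 CPM in Y440X GFP-negative libraries, and none of the 6 was at 0 in any library. Their part in the levels of Mia and Mfi2 was not tested.

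The third comparison took Y440X against WT in GFP-negative cells, where levels were low throughout. Mia had the widest listed fall, at -3.14 ± 0.39, followed by Cytl1 at -2.05 ± 0.33 and Susd5 at -1.44 ± 0.35; these 3 are in the authors' table of 425 genes lower in this fraction, 2.62% of those tested, with FDR values of 0.00325, 0.00484 and 0.0438 in the authors' deposited table, and are given as descriptions. Susd5 thus lay just inside the FDR limit of 0.05. The other 5 are not listed for this fraction and were tested here. Their p-values were adjusted over the listed genes only, which is more lenient than over all genes the authors tested. Of the 5, 2 were called lower and 1 higher, beside 31.4% called lower and 3.93% called higher among the 229 genes not listed for the fraction.

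Lect1 was lower by 0.97 on the log2 scale, with a fold change of -0.97 ± 0.31 (edgeR adjusted p = 0.0183; lower in both limbs), just outside the authors' 2-fold limit. The call was lost without the WT forelimb library or without the Y440X hindlimb library, with log2 fold changes of -0.63 in both cases and edgeR adjusted p of 0.0634 and 0.0626, and Lect1 lay at 0.10 under TMM and DESeq2 size factors over the listed genes. That scaling moves the median of all genes by 1.06 and 1.07, since it rests on genes selected for a change. 3110079O15Rik had 18 reads in WT against 1 in Y440X, a WT over Y440X ratio of 19.5 with a 95% counting interval of 3.07 to 811 (exact Clopper-Pearson), and passed the test (edgeR adjusted p = 0.00243, at most 0.0461 over 10 alternatives). The fitted log2 fold change of 3110079O15Rik, -3.97 ± 1.32, lies beyond the authors' 2-fold limit. The authors' average CPM covers all 8 libraries and is the same in the lists of both fractions for Cytl1 and Susd5. 3110079O15Rik, listed for GFP-positive cells, was thus most likely tested in GFP-negative cells too and missed their FDR limit. Chad, at -0.47 ± 0.48, and Mfi2, at -0.35 ± 0.34, did not pass (edgeR adjusted p = 0.39 and 0.366). In the hindlimb both were higher in Y440X than in WT, by ratios of 1.56 and 1.08, and in the forelimb both were lower, at 0.35 and 0.558. Without the Y440X hindlimb library Chad measured -1.06 (edgeR adjusted p = 0.0492), and without the WT forelimb library 0.21.

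Fxyd3 rose in GFP-negative cells, by 1.68 ± 0.58 on the log2 scale (edgeR adjusted p = 0.0178; higher in both limbs), from 10 reads in both WT libraries to 35 in both Y440X ones. This rise is beyond the authors' 2-fold limit, yet Fxyd3 is not in their tables for this fraction. Like 3110079O15Rik, it was most likely tested there and missed their FDR limit, and the adjustment used here is the more lenient one. The call was lost without the Y440X hindlimb library (1.09, edgeR adjusted p = 0.0986), with limb as a replicate block (1.65, edgeR adjusted p = 0.0508) and in DESeq2 (1.72, adjusted p = 0.132), with adjusted p between 0.00032 and 0.132 over 10 alternatives. Markers of the surface epithelium, a tissue that expresses Fxyd3, were listed in part. Of 15, 10 are in the lists, 9 as higher in GFP-positive and 7 as higher in GFP-negative cells. The unlisted ones have no values here, and the listed ones were selected as changed. A rise in their sum therefore follows at least in part from that selection. Summed over the 10, they were at 45.1 and 46.8 CPM in WT and 106 and 125 CPM in Y440X GFP-negative libraries. In GFP-positive libraries, where Fxyd3 was lower in Y440X, they were at 22.5 and 22.4 CPM in WT and 59.9 and 83.8 CPM in Y440X. None of the 10, which include Krt5, Krt14, Epcam and Cdh1, was at 0 in any library. Their part in the level of Fxyd3 was not tested.

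**Figure D3:**
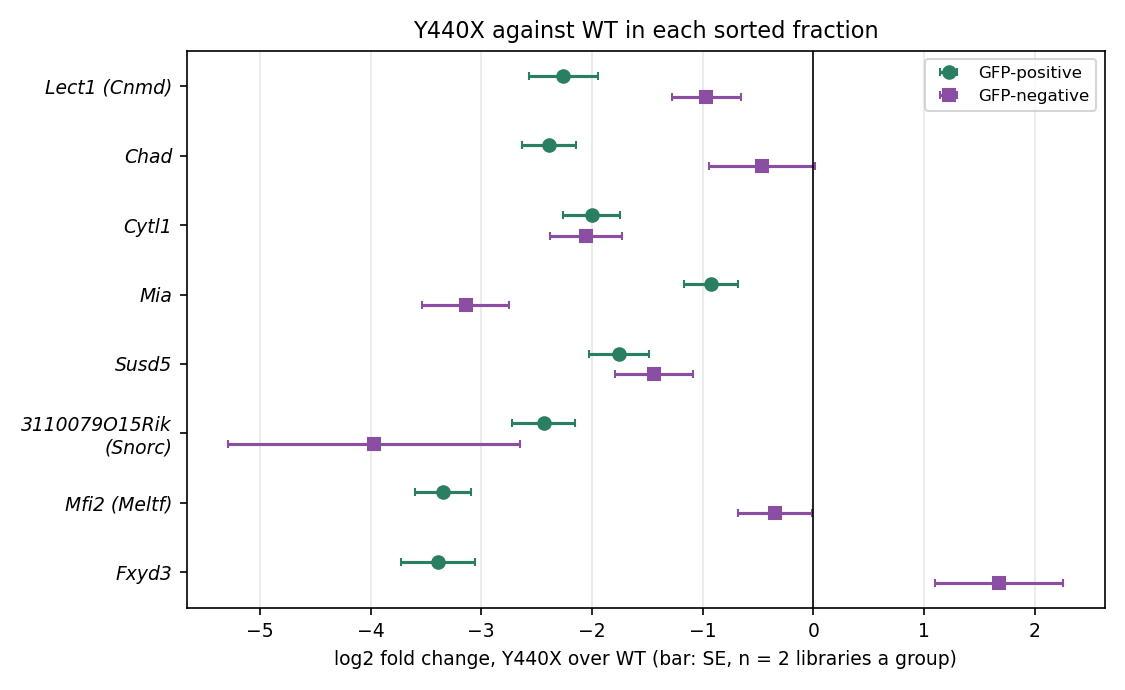
Fitted log2 fold change of Y440X over WT for each gene in GFP-positive (circles) and GFP-negative (squares) cells; bars are SE, with 2 libraries a group. All GFP-positive values are below 0, from -3.39 for Fxyd3 to -0.92 for Mia, while GFP-negative values run from -3.97 for 3110079O15Rik, which rests on 1 Y440X read, to 1.68 for Fxyd3.

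The fourth comparison set forelimb against hindlimb within each group. The lists did not use this contrast itself, but with limbs counted as replicates it forms the spread within groups in the authors' test. Listing may thus have favoured genes with a small limb difference in the listed fraction. The limb p-values and shares below hold for genes selected in this way. Lect1 and 3110079O15Rik were higher in forelimb, and the other 6 did not pass. Lect1 was 1.67 and 1.82 times as high in forelimb in WT and Y440X GFP-positive cells, and 1.53 and 1.73 times in WT and Y440X GFP-negative cells. The ratio was above 1 in all 4 groups, and the fit gave a log2 fold change of 0.75 ± 0.12 (edgeR adjusted p = 0.00576). 3110079O15Rik was 1.68 and 1.84 times as high in forelimb in GFP-positive cells of WT and Y440X and 1.88 times in WT GFP-negative cells, where it had 12 and 6 reads. Its fit gave 0.82 ± 0.16 (edgeR adjusted p = 0.0142). Of the 739 genes, 4.06% were called higher in forelimb and 0.812% higher in hindlimb. The pair are among 30 genes called higher in forelimb, and no claim rests on their count.

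Of the remaining genes Mia also had a ratio above 1 in all 4 groups (1.38, 1.05, 1.51 and 1.22 in the order WT and Y440X GFP-positive, WT and Y440X GFP-negative), and measured 0.34 ± 0.14 (edgeR adjusted p = 0.159). Susd5, at 0.32 ± 0.16, Chad, at 0.28 ± 0.20, Cytl1, at 0.27 ± 0.14, and Mfi2, at 0.21 ± 0.17, had edgeR adjusted p between 0.263 and 0.525. Their forelimb library was higher in 3 of 4 groups and lower in Y440X GFP-negative cells. Fxyd3 was the 1 gene below 0, at -0.30 ± 0.26 (edgeR adjusted p = 0.541), with a forelimb ratio below 1 in 3 of 4 groups. Col2a1, the main cartilage collagen, had forelimb ratios of 1.48 and 1.31 in WT and Y440X GFP-positive cells and 1.13 and 0.889 in WT and Y440X GFP-negative cells, and Sox9 1.16, 0.847, 1.34 and 0.816 in the same order. Acan had 1.54, 2.06, 2.76 and 3.05, and Matn1 1.52, 1.83, 1.65 and 1.17. Of the 5 cartilage markers, 5, 5, 4 and 2 were above 1 in these groups. A higher forelimb level was thus not particular to Lect1 and 3110079O15Rik.

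The limb calls rest on GFP-positive libraries. In these 4 alone Lect1 and 3110079O15Rik measured 0.80 and 0.81 (edgeR adjusted p = 0.000251 and 0.00304). In the 4 GFP-negative libraries alone they measured 0.70 and 1.01 (edgeR adjusted p = 0.152 and 0.388) and 0 of 739 genes were called. Without either of the Y440X GFP-positive libraries both lost their calls, Lect1 at 0.71 (edgeR adjusted p = 0.0914 and 0.0962) and 3110079O15Rik at 0.78 (edgeR adjusted p = 0.109 and 0.107), and again 0 of 739 genes passed. Susd5 gained a call, at 0.48, without either Y440X GFP-negative library (edgeR adjusted p = 0.0184 and 0.0186). Whether the limb difference differed between fractions or between genotypes was also fitted, and edgeR called 0 of the 8 genes in either test. Unadjusted p-values under 0.05 numbered 0 in both, and DESeq2 called 0 in both. Of all listed genes 0.947% passed the test between fractions and 0% that between genotypes. In simulated counts these tests recovered 64% and 54% of 2-fold differences, so a difference of that size could be missed.

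**Figure D4:**
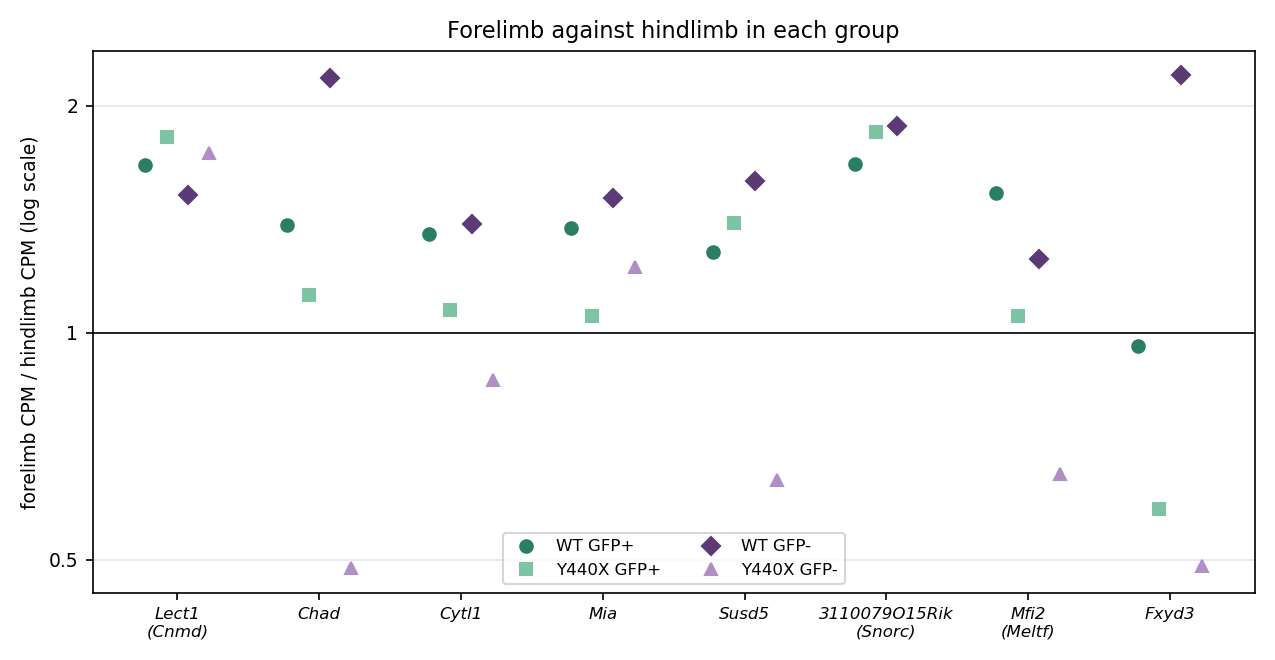
Ratio of forelimb to hindlimb CPM (log scale) for each gene in each of the 4 groups; the line marks equal levels, and 3110079O15Rik has no Y440X GFP-negative point because its hindlimb library held 0 reads. Lect1, Mia and the plotted groups of 3110079O15Rik lie above 1, while 5 of the 8 genes have a Y440X GFP-negative ratio below 1.

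To find genes with a pattern like that of the 8, log2(CPM + 0.5) of each gene over the 8 libraries was centred on its own mean and set against the median profile of the 8. Lect1 and 3110079O15Rik lay closest to that profile, with root mean square differences of 0.13 and 0.17 on the log2 scale, followed by Chad at 0.34, Mia at 0.70, Cytl1 at 0.73, Susd5 at 0.89, Mfi2 at 0.90 and Fxyd3 at 1.84. The members define this profile themselves, so their distances only order them. The 0.5 CPM added before the logarithm flattens values near 0: Lect1 and 3110079O15Rik lie close together here, although in GFP-negative cells 3110079O15Rik fell to 1 read in Y440X and Lect1 had a log2 fold change of -0.97. The 5 other genes nearest to the profile were Fzd9, a Wnt receptor (0.25), Trpv4, a cation channel of chondrocytes (0.29), the collagen chain gene Col9a1 (0.32), the matrilin gene Matn4 (0.37) and Ihh, the hedgehog ligand of prehypertrophic chondrocytes (0.46). All 5 are listed as lower in GFP-positive cells and none for GFP-negative cells. Fzd9, for example, was at 182 and 104 CPM in WT GFP-positive, 37.4 and 22.3 CPM in Y440X GFP-positive, 2.77 and 2.20 CPM in WT GFP-negative and 1.70 and 1.31 CPM in Y440X GFP-negative libraries. The 8 points share pools and depth, and likeness in them is a description.

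Around these genes, 13 of 30 other cartilage matrix genes are in the authors' tables, 12 as lower in GFP-positive cells, 4 as lower in GFP-negative cells and 0 as higher. Over the roughly 16240 genes the authors tested, 1.4% are listed as lower in GFP-positive and 2.62% as lower in GFP-negative cells. In all, 739 distinct genes are listed. The most abundant were Col2a1, Col11a1, Col9a1 and Col9a3, all fibril or fibril-associated collagen genes; Col11a1 was at 7332 and 4711 CPM in WT and 1985 and 1474 CPM in Y440X GFP-positive libraries. Of 20 regulators of chondrocytes 10 are listed, 6 as lower in GFP-positive and 7 as lower in GFP-negative cells, among them Sox9, Fgfr3, Sox6 and Sox5. Of 29 protein relatives of the 8 genes 4 are listed. Chadl, a relative of chondroadherin expressed in cartilage, is listed as lower in GFP-positive cells, at 150 and 124 CPM in WT and 40.6 and 47.3 CPM in Y440X. Trf, encoding serum transferrin, and Fxyd4, another FXYD protein, are listed as lower, and Ltf, encoding the lactoferrin of neutrophil granules, as higher, all 3 in GFP-negative cells. Trf was at 14.6 and 13.1 CPM in WT and 6.90 and 4.87 CPM in Y440X GFP-negative libraries. Of 6 tendon markers 0 are listed, Tnmd, the closest relative of Lect1, included; genes outside the tables were not analysed here.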

How the data were processed

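RNA was measured in 8 libraries: GFP-positive and GFP-negative cells of WT and Y440X, forelimb and hindlimb. Per the submitters' processing notes featureCounts, edgeR 3.36.0, GRCm38 and mm10 were used; no source used here names the aligner. The authors deposited 4 tables, whose genes all have a fold change of 2 or more in either direction (1 on the log2 scale) at an FDR below 0.05. Per the file headers they hold log2 fold changes, log2 average CPM (logCPM), an F statistic (a score), p-values with their FDR, and gene length, a unit of another kind. The headers name the columns of single libraries RPKM, yet what the authors deposited there are counts: 100% were whole numbers, and the deposited logCPM follows from them without the gene length.

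Effective library sizes were those that best return the authors' logCPM and log2 fold changes (least squares, genes of 200 or more counts). The largest residual of a log2 fold change was 0.00133, its median 0.000167. CPM and RPKM were computed from counts, these sizes and the deposited lengths. The planned test allowed for RPKM or counts, and the counts decided it.

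The quasi-likelihood test of edgeR 4.0.16 (R 4.3.3, legacy setting) was fitted to all 739 listed genes without a filter on low counts. Adjusted p-values are Benjamini-Hochberg values over those 739; as these genes were selected for genotype differences, adjustment over them is more lenient in genotype contrasts than over all genes. SE are Wald errors. Fraction contrasts used 4 group means over 8 libraries, genotype contrasts the 4 libraries of a fraction, and limb contrasts group plus limb. Simulated counts were drawn with a spread common to all genes, estimated with limb in the fit. That spread leaves limb difference out, while the fraction and genotype fits had no limb term, so the rates may be too favourable for them. In simulated counts of the fraction contrast in WT, 81% of 2-fold and 97% of 4-fold changes among 739 genes were recovered, and 1.67% of unchanged genes were called. For the limb contrast these values were 96%, 100% and 0.928%. Recovery of 2-fold and 4-fold changes was 79% and 99% for the fraction contrast in Y440X. For the genotype contrast it was 85% and 99% in GFP-negative and 72% and 85% in GFP-positive cells. It was 64% and 96% for limb by fraction and 54% and 96% for limb by genotype. DESeq2 1.42.0 was an alternative, with other scalings, a filter on mean CPM, left-out libraries and a limb block.

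The fractions of a limb and genotype were sorted from 1 suspension, which pairs them. Their forelimb minus hindlimb differences correlated over genes at 0.134 in WT and 0.23 in Y440X. The block, a limb term shared by both genotypes, changed no fraction call. A term for each suspension was not fitted.

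Positions and overlaps are from GENCODE M21 (GRCm38). The members and the lists of other genes were chosen with earlier results of these data known. Named genes are the 8 members, Sox9, the 5 nearest profiles and up to 4 of each list by mean CPM; Matn1, Cdh1 and Tnmd are named besides, and were chosen after values were seen. There were 0 sample columns left unused. Intervals cover counting error only, since reads are not independent molecules.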

Additional observations from a re-analysis of the deposited data

Results flagged for a closer look

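Fxyd3 moved in opposite directions in the 2 fractions. It was lower in both Y440X limbs in GFP-positive cells, with a log2 fold change of -3.39, and higher in both Y440X limbs in GFP-negative cells, with a log2 fold change of 1.68. The difference was not tested, because the first of these values is what chose the gene. In counts the change is from 408 to 43 reads in GFP-positive and from 10 to 35 in GFP-negative libraries. A WT over Y440X ratio of 0.309 in GFP-negative cells has a 95% counting interval of 0.136 to 0.638 (exact Clopper-Pearson). No other gene of the 8 had both limbs of one fraction on one side and both limbs of the other fraction on the opposite side.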

How the results depend on the processing

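Under all 14 alternatives to each fraction contrast, every gene called in WT (8) and in Y440X (7) stayed called and kept its direction; Fxyd3 in Y440X was never called and lay between -0.013 and 1.01 with 1 library left out. Scaling by TMM or by DESeq2 size factors rests on genes selected as changed. In GFP-negative cells it gave 325 and 335 called genes against 591, with 64% and 63.0% of them higher against 15.9%, and put Lect1 at 0.10 in both, Chad at 0.62 and 0.63 and Mfi2 at 0.73 and 0.74. In GFP-positive cells the median of all genes shifted by 0.67 and 0.58, which took the call from Mia (0 of 1 called) and made 57.3% and 53.1% of calls higher against 28.3%. For the limbs TMM called 19 genes against 36, with 73.7% higher in forelimb, DESeq2 factors 55.2% against 83.3%, at a shift of -0.12. The fraction contrast in WT shifted by 0.53 with DESeq2 factors.

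A mean of at least 1 CPM left only Lect1 to test in GFP-negative cells (1 called against 3). Fitting only the genes not listed for a fraction, chosen after seeing the data, called 73 in GFP-negative and 81 in GFP-positive cells, from fewer genes tested. With 1 library left out, Mia in GFP-positive cells was called in 0 or 1 case of 1 and all listed genes numbered 228 to 384 against 413; in GFP-negative cells Chad lay between -1.06 and 0.21. For the limbs 0 to 3 of the 8 and 0 to 43 of all genes were called, and Mfi2 lay between -0.0265 and 0.36. GFP-positive libraries alone called 56 genes, GFP-negative ones 0 genes and 0 of the 8, with Mfi2 at -0.12. The limb by fraction test called 7 genes, and 13, 3 and 18 under DESeq2 factors, DESeq2 and the filter. Where no value above shows it, the cause was not tested. The lone library of a group is assumed to vary like the others.

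Across genotypes, libraries of the same number share the limb but not the fetuses, and their forelimb minus hindlimb differences correlated over genes at 0.416 (GFP-positive) and 0.421 (GFP-negative). With limb as a replicate block Fxyd3 in GFP-negative cells had an adjusted p of 0.0508 (1.65), and no other call of the 8 changed. Depth limits Fxyd3 and 3110079O15Rik in GFP-negative libraries, at 23 reads or fewer each.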
